A study of Mus musculus with 48 samples.

Results

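Esomeprazole given after stress was compared with vehicle given after stress in the frontal cortex of mice. The comparison used the 12 of 48 libraries that the labels place in these groups, 6 of stressed esomeprazole mice and 6 of stressed vehicle mice. All were male C57BL/6 mice, an inbred laboratory strain, and 63 to 91 days old. All 12, those given vehicle included, had been through the stress environment on 3 days. Esomeprazole or vehicle was injected into the abdominal cavity 60 minutes after each session, and the tissue was collected 12 hours after the final dose. Sample labels and series design both state 2 mg/kg of esomeprazole, whereas the treatment protocol states 2 g/kg. The design counts 6 mice per group, so each library was taken as 1 mouse, and p-values measure the spread between these libraries. Poly(A) RNA was sequenced as read pairs. The kind of stressor and the make-up of the vehicle are not given in the sources used here.

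Esomeprazole is a proton pump inhibitor. In the stomach such drugs bind the gastric proton and potassium pump, whose catalytic subunit is encoded by Atp4a, and stop acid secretion. Drugs of this class are also known to inhibit DDAH, the enzyme that clears dimethylarginine, a natural inhibitor of nitric oxide synthase, and to activate the aryl hydrocarbon receptor, a transcription factor that switches on xenobiotic genes such as Cyp1b1. Stress reaches the cortex in part through glucocorticoids, adrenal hormones whose receptor, encoded by Nr3c1, raises transcription of genes such as Fkbp5, Sgk1, Tsc22d3 and Per1.

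No gene passed the test for a difference between esomeprazole and vehicle after stress. Of 14944 genes tested, limma called 0 at an adjusted p under 0.05 (0% of genes), and the smallest adjusted p was 0.999979. At an unadjusted p under 0.05 there were 12 genes (0.0803%), 6 higher and 6 lower with esomeprazole. With no difference, a share of about 0.05 of genes would be expected there by chance, more than was seen. The quasi-likelihood test of edgeR called 0 genes, with 13 at an unadjusted p under 0.05, and DESeq2 called 0, with 25. The 6 esomeprazole libraries all lay above the 6 vehicle libraries for 1 gene (0.00669%), Card6, and all lay below them for 0 genes (0%).

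Estimated changes were small for most genes. The log2 fold change, esomeprazole over vehicle on the scale of log2 of normalised reads plus 1, had a median of -0.01, with 7048 genes above 0 and 7896 below. It was within 0.1 of 0 for 52.2% of genes and within 0.5 for 90.4%, and its size was above 1 for 248 genes. The 95% interval had a median half-width of 0.65. It lay wholly within a 2-fold change in either direction for 69.5% of genes and within a 1.5-fold change for 32.4%. For the remaining genes these libraries could not bound the change to that size.

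**Figure D1:**
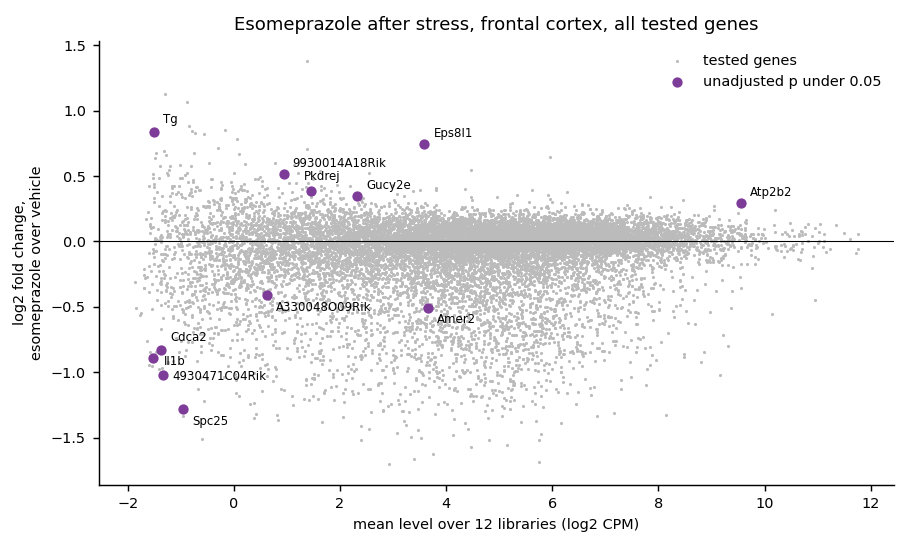
Each point is 1 of the 14944 tested genes, with its mean level over the 12 libraries (log2 CPM, reads scaled to equal library totals) on the x axis and its log2 fold change, esomeprazole over vehicle after stress, on the y axis. The 12 genes with an unadjusted p under 0.05 are named, from Tg at 0.83 to Spc25 at -1.28, and many other genes have fold changes of that size.

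The 12 libraries were not alike, and both groups held the same kinds of library. Reads assigned to genes numbered 27.6 to 41.2 M in esomeprazole libraries and 31.5 to 38.4 M in vehicle libraries, a difference of means of -0.43 M (two-sided exact permutation test, p = 0.861). The share of all reads that fell in no annotated gene was 8.14% to 19.3% (median 16.1%) in esomeprazole libraries and 6.51% to 19.9% (median 18.6%) in vehicle libraries. The means differed by -1.13 percentage points (exact permutation test, p = 0.706). This no-feature share was under 15% in esomeprazole libraries 2, 3 and 4 and in vehicle libraries 3 and 5. The same 5 libraries had the positive scores on the first principal component, which held 79.6% of the variance among the 12. A mean of olfactory bulb markers was low in esomeprazole library 5 (-2.63) and in vehicle library 4 (-2.40). The other esomeprazole libraries lay at 0.60 to 1.87 and the other vehicle libraries at 0.60 to 1.62.

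**Figure D2:**
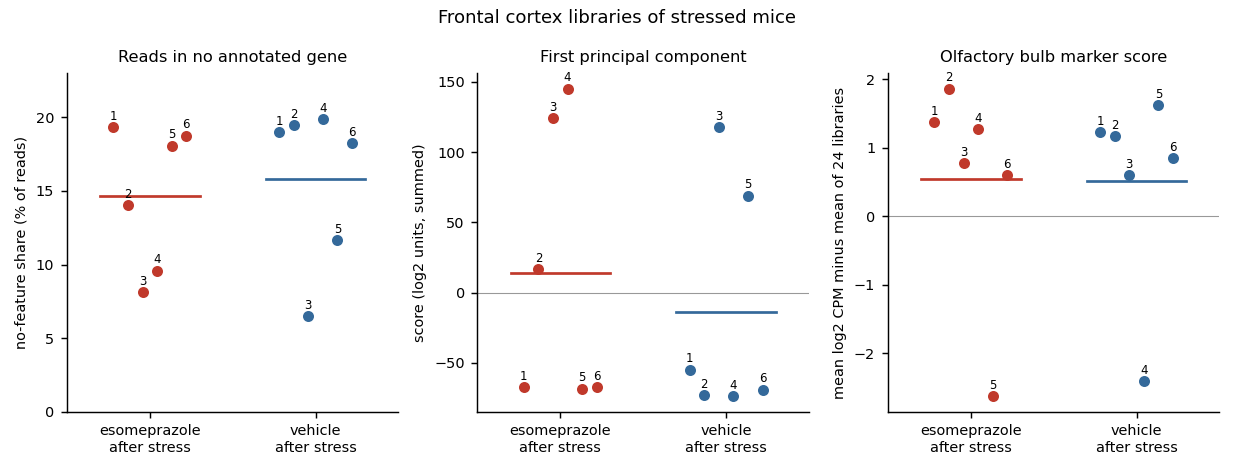
The no-feature share (% of all reads), the score on the first principal component (summed log2 units) and the olfactory bulb marker score (mean log2 CPM minus the mean of 24 frontal cortex libraries) are plotted for each library, with its replicate number above the point and a line at the group mean. Esomeprazole libraries 2, 3 and 4 and vehicle libraries 3 and 5 have no-feature shares under 15% and positive component scores, and 1 library of each group has a low bulb score.

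Genes whose levels followed this split had wide intervals. Nr3c1, the glucocorticoid receptor gene, had 2678, 829, 192, 76.4, 3511 and 3214 normalised reads in esomeprazole libraries 1 to 6, and 2869, 2991, 370.2, 3901, 488 and 2948 in vehicle libraries 1 to 6. Normalised reads are reads scaled to a common library size, so they compare libraries and not genes. The 5 low values came from the 5 libraries with no-feature shares under 15%, and the groups overlapped. The log2 fold change of Nr3c1 was -0.93 ± 1.03 (SE; 95% interval -3.17 to 1.31). It was -0.53 ± 0.40 with the no-feature share as covariate and -0.02 ± 0.13 among the 7 libraries with a share of 15% or more. Gabrg1, which encodes a GABA-A receptor subunit, was at -1.13 ± 1.09 over the 12 libraries and -0.04 ± 0.19 among those 7. Ptprc, the gene of the leukocyte antigen CD45, was at -1.04 ± 0.89 and -0.02 ± 0.17 in the same fits.

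Intervals were narrower among these 7 libraries, 3 of esomeprazole and 4 of vehicle mice, with a median half-width of 0.30 and 91.1% of genes bounded within a 2-fold change in either direction. With the no-feature share as covariate over all 12 libraries these values were 0.32 and 88.3%. Limma called 0 genes in both fits, with 86 genes at an unadjusted p under 0.05 among the 7 libraries and 220 with the covariate. The set of 7 libraries was chosen after seeing the data.

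Atp2b2, which encodes a plasma membrane calcium pump of neurons, had the smallest p among genes with an average of at least 1 log2 CPM. It lies at chr6:113743831-114042613 on the minus strand of GRCm38, the build used for all positions. Atp2b2 had 21731, 29172, 31754, 31191, 30690 and 28660 normalised reads in esomeprazole libraries 1 to 6, and 24837, 22748, 20693, 23217, 24192 and 25074 in vehicle libraries 1 to 6. In 5 of 6 esomeprazole libraries it lay above every vehicle library, and in esomeprazole library 1 it lay below 5 of them. The log2 fold change was 0.29 ± 0.12 (95% interval 0.03 to 0.55), and the adjusted p was 0.999979 in limma. It was 0.29 ± 0.10 with the no-feature share as covariate and 0.16 ± 0.13 among the 7 libraries.

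Eps8l1, related to the actin regulator EPS8 (chr7:4460674-4480487, plus strand), had 355 to 828 normalised reads (median 505) in esomeprazole libraries and 147 to 500.1 (median 309) in vehicle libraries. The groups overlapped. Its log2 fold change was 0.74 ± 0.32 over the 12 libraries and 0.34 ± 0.24 among the 7. Gucy2e, a membrane guanylate cyclase gene known from photoreceptors (chr11:69218117-69237036, minus strand), had 172 to 216 normalised reads (median 187) in esomeprazole libraries and 125 to 180.3 (median 152) in vehicle libraries. Pkdrej, a polycystin-family gene known from sperm (chr15:85814670-85821734, minus strand), had 91.3 to 129 normalised reads (median 102) in esomeprazole libraries and 69.8 to 108 (median 78.5) in vehicle libraries. For Gucy2e and Pkdrej alike, vehicle library 4 was the 1 vehicle library inside the esomeprazole range. Their log2 fold changes were 0.35 ± 0.16 and 0.38 ± 0.18 over the 12 libraries, and 0.33 ± 0.16 and 0.34 ± 0.20 among the 7.

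Card6, which encodes a protein with a caspase recruitment domain (chr15:5095981-5108539, minus strand), was the gene whose groups did not overlap. Card6 had 119, 112, 106, 103.7, 108 and 118 normalised reads in esomeprazole libraries 1 to 6, and 77.4, 92.0, 102, 87.6, 98.01 and 87.5 in vehicle libraries 1 to 6. The gap between the groups was narrow, and chance alone would separate the groups in more than 1 of the genes tested. The log2 fold change was 0.29 ± 0.15 (95% interval -0.02 to 0.61). It was 0.29 ± 0.11 with the no-feature share as covariate and 0.42 ± 0.13 among the 7 libraries.

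The other genes of smallest p on the higher side were Brinp1, a neural gene inducible by bone morphogenetic protein and retinoic acid, Nlrc5, the transactivator of MHC class I genes, and Galnt15, an enzyme of O-glycosylation. Brinp1 had 6985 to 9400 normalised reads (median 8703) in esomeprazole libraries and 6358 to 7868 (median 7453) in vehicle libraries. As for Atp2b2, esomeprazole library 1 held the low value and the other 5 lay above every vehicle library. Nlrc5 reached 170.5 normalised reads in esomeprazole library 2 and 50.04 to 110.3 in the other esomeprazole libraries, against 38.8 to 75.1 in vehicle libraries. The log2 fold changes were 0.22 ± 0.11 for Brinp1, 0.58 ± 0.30 for Nlrc5 and 0.45 ± 0.24 for Galnt15, and among the 7 libraries 0.12 ± 0.10, 0.27 ± 0.27 and 0.28 ± 0.25.

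On the lower side, Amer2, whose protein binds the Wnt pathway scaffold APC (chr14:60373259-60388197, plus strand), had 246 to 464 normalised reads (median 356) in esomeprazole libraries and 335 to 816 (median 477) in vehicle libraries. The groups overlapped. Over the 12 libraries Amer2 was at a log2 fold change of -0.51 ± 0.22 (95% interval -0.999 to -0.02), and among the 7 at -0.66 ± 0.28. Tbca, a tubulin folding cofactor, had 418 and 345 normalised reads in esomeprazole libraries 3 and 4 and 780.2 to 901 in the other esomeprazole libraries, against 741 to 1025 in vehicle libraries. Mrpl42, of the mitochondrial ribosome, was also lowest in esomeprazole libraries 3 and 4, with 712 and 437 normalised reads. The log2 fold change was -0.49 ± 0.26 for Tbca and -0.50 ± 0.27 for Mrpl42 over the 12 libraries, and -0.14 ± 0.07 and -0.06 ± 0.07 among the 7, which do not include those libraries.

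Klf10, a transcription factor gene induced by TGF-beta, had 412 to 861 normalised reads (median 706) in esomeprazole libraries and 659 to 1469 (median 853) in vehicle libraries. Its log2 fold change was -0.47 ± 0.24 over the 12 libraries and -0.44 ± 0.20 among the 7. The thioredoxin gene Txn1 was at -0.31 ± 0.16, the sperm-protein gene Spa17 at -0.43 ± 0.23, the endothelial lectin gene Clec14a at -0.33 ± 0.18 and the death receptor gene Tnfrsf25 at -0.55 ± 0.31. Among the 7 libraries Txn1 was at -0.08 ± 0.06, Spa17 at -0.11 ± 0.15, Clec14a at -0.20 ± 0.17 and Tnfrsf25 at -0.43 ± 0.27. In all of these genes the groups overlapped.

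Of the 12 genes with an unadjusted p under 0.05, 7 had average levels under 1 log2 CPM and were named after their values were seen. They were Tg (thyroglobulin, 0.83) and 9930014A18Rik (0.52) on the higher side, and Spc25 (-1.28) and Cdca2 (-0.83), both of dividing cells, A330048O09Rik (-0.40), 4930471C04Rik (-1.02) and Il1b on the lower side. Il1b, the gene of the inflammatory cytokine interleukin-1 beta (chr2:129364570-129371139, minus strand), had 1.66 to 10.3 normalised reads (median 8.14) in esomeprazole libraries and 8.83 to 16.9 (median 13.1) in vehicle libraries. The ranges overlapped at this low level, where few reads decide a value. The log2 fold change was -0.89 ± 0.36 (95% interval -1.68 to -0.10).

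**Figure D3:**
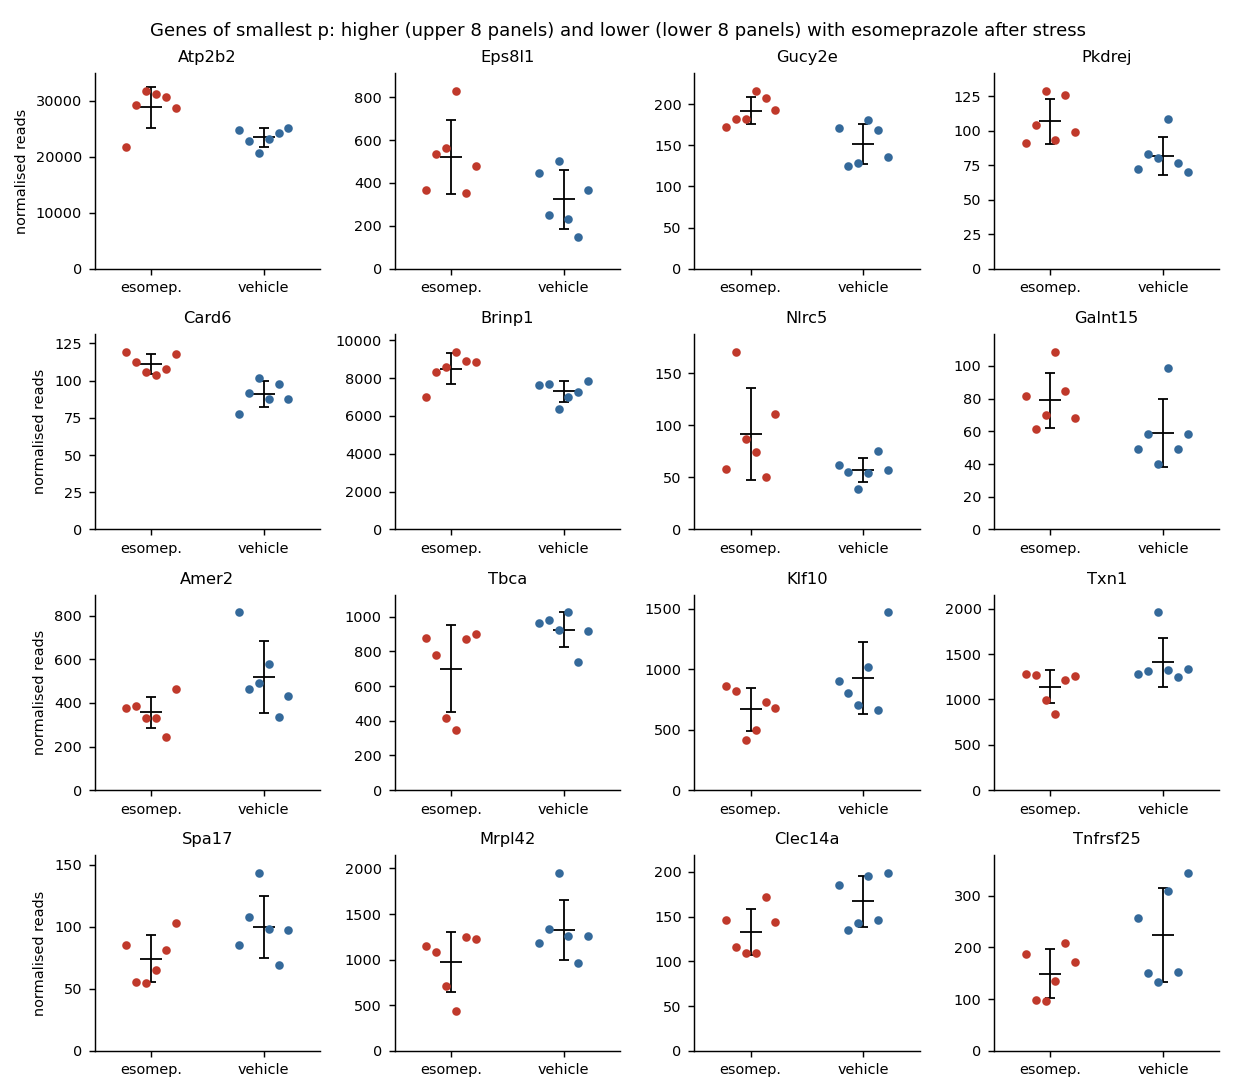
Normalised reads of the 8 genes of smallest p on the higher side (upper panels) and the 8 on the lower side (lower panels) are plotted for each library, esomeprazole left of vehicle, with the mean and standard deviation of each group of 6 in black. Card6 is the gene whose groups do not overlap (esomeprazole from 103.7, vehicle up to 102), and Tbca and Mrpl42 each have 2 low esomeprazole libraries.

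Proton pump genes did not pass the test. Atp4a itself had 20.4 to 51.9 normalised reads (median 26.4) in esomeprazole libraries and 22.1 to 51.1 (median 32.2) in vehicle libraries. These ranges nearly coincided, with a log2 fold change of -0.12 ± 0.31 (95% interval -0.79 to 0.55). Atp12a, a related pump gene, was not among the genes given for frontal cortex. Of 17 subunits of the V-ATPase, the proton pump of lysosomes and synaptic vesicles, 7 were higher (median -0.03, beside -0.01 over all genes), and 15 had intervals within a 2-fold change in either direction. Of 27 lysosomal genes 19 were higher (median 0.03), and 26 had such intervals. With the no-feature share as covariate 2 of the 17 V-ATPase subunits and 4 of the 27 lysosomal genes were higher, and among the 7 libraries 11 and 14 were. The median of the V-ATPase subunits was -0.14 without esomeprazole library 3 and 0.12 without vehicle library 3, and that of the lysosomal genes was -0.08 and 0.16 without the same libraries.

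Ddah1, which encodes a dimethylarginine hydrolase, had 4078 to 4812 normalised reads (median 4388) in esomeprazole libraries and 3853 to 5814 (median 3969) in vehicle libraries. The esomeprazole values lay inside the vehicle range. Its fold change on the log2 scale was 0.03 ± 0.13 (95% interval -0.25 to 0.30). Ddah2 was at -0.03 ± 0.46, the neuronal nitric oxide synthase gene Nos1 at 0.13 ± 0.32 and the endothelial Nos3 at 0.00 ± 0.24. Of 16 genes of this pathway tested 11 were higher and 5 lower (median 0.02), and 0 had an unadjusted p under 0.05.

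The aryl hydrocarbon receptor binds DNA at a core of the letters GCGTG. Cyp1b1, a cytochrome P450 gene, and Tiparp, whose product restrains the receptor, are standard targets. For each, 200 bases upstream are shown because these genes are read as indicators of receptor activity. All windows end short of the gene start, and the bases nearest the start were not searched. The sequences are from RefSeq on GRCm38.p6, Cyp1b1 at chr17:79715112-79715311 (minus strand) and Tiparp at chr3:65528197-65528396 (plus strand). They run 5′ to 3′ along the gene, and capitals mark the core, found as its reverse complement CACGC.
Cyp1b1: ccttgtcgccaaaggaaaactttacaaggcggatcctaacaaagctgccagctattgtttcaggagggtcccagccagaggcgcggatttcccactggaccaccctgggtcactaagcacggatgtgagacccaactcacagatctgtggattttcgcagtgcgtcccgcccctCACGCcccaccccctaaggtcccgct
Tiparp: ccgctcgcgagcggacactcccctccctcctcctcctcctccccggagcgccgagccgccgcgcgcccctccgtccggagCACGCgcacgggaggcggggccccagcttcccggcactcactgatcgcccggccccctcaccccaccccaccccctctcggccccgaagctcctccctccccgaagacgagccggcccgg
Each window held 1 match when both strands were searched, and the window of Nqo1 held 0. Of all 32851 promoter windows of this length, 7408 (22.6%) held the core, and a match describes these letters only.

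Cyp1b1 had 159 to 488 normalised reads (median 261) in esomeprazole libraries and 129.9 to 459 (median 294) in vehicle libraries. The groups covered nearly the same range. The log2 estimate was 0.02 ± 0.38 (95% interval -0.81 to 0.85), and the change was not bounded more closely than this interval. Tiparp had 68.9 to 1163 normalised reads (median 476) in esomeprazole libraries and 160.2 to 970.1 (median 635) in vehicle libraries. Its lowest values, 68.9 and 77.2, came from esomeprazole libraries 3 and 4. Tiparp was at -0.69 ± 0.73 over the 12 libraries and at -0.14 ± 0.37 among the 7. Ahr, the receptor gene, was at -0.43 ± 0.67 and -0.06 ± 0.11 in these fits. Of 18 receptor and xenobiotic genes tested 6 were higher (median -0.05). The antioxidant genes Hmox1 and Nqo1, targets of the factor Nrf2, were at 0.11 ± 0.32 and -0.06 ± 0.31, and 12 of 20 genes of that pathway were higher (median 0.02).

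Glucocorticoid response genes did not pass the test either. Fkbp5, which encodes a co-chaperone of the receptor, had 1143 to 2420 normalised reads (median 1519) in esomeprazole libraries and 986 to 1739 (median 1370) in vehicle libraries. The highest value came from esomeprazole library 4, and the groups overlapped. Its log2 fold change was 0.22 ± 0.20 (95% interval -0.22 to 0.66). The kinase gene Sgk1 was at 0.14 ± 0.14, Tsc22d3, the glucocorticoid-induced leucine zipper, at 0.05 ± 0.15 and the clock gene Per1 at -0.08 ± 0.31. The interval of Tsc22d3, -0.28 to 0.37, bounds any change to less than 1.5-fold in either direction.

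Plin4, a lipid droplet coat protein gene, had 106.8 to 225 normalised reads (median 125) in esomeprazole libraries and 89.2 to 199 (median 119) in vehicle libraries. Its log2 fold change was 0.26 ± 0.27, with the highest values in esomeprazole libraries 3 and 4, and -0.12 ± 0.26 among the 7 libraries. In stressed against unstressed vehicle mice, a contrast that shares the 6 vehicle libraries, Plin4 was at -1.56 ± 0.43. It did not pass the adjusted test in either contrast. Of 39 glucocorticoid response genes tested 24 were higher (median 0.02), and 29 had intervals within a 2-fold change in either direction. Of 24 circadian clock genes 14 were higher (median 0.02).

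**Figure D4:**
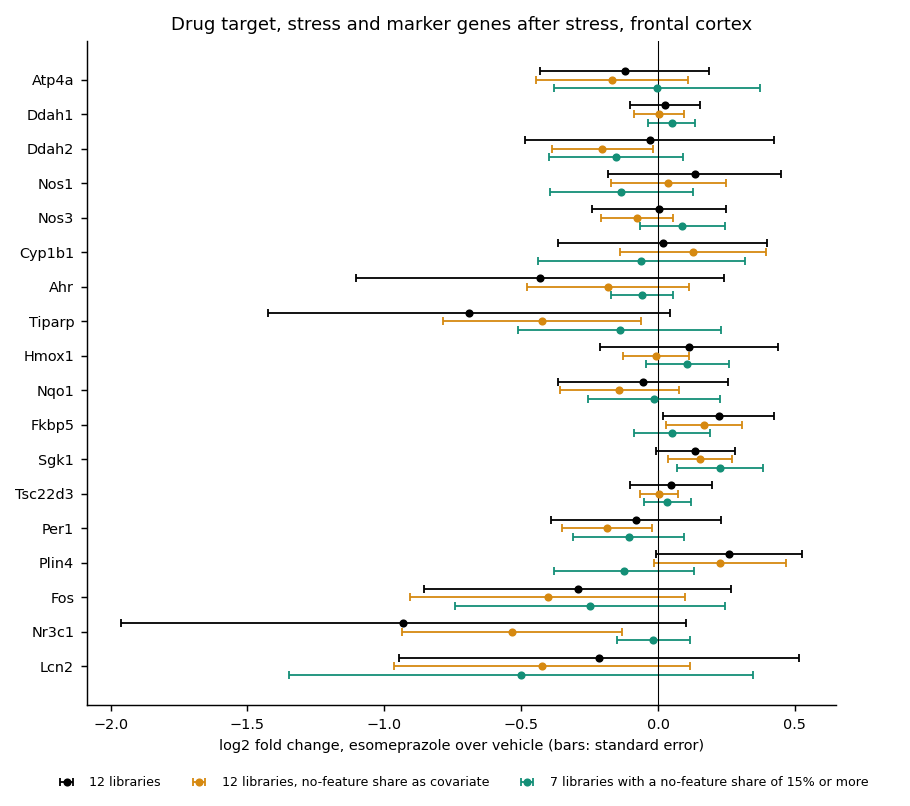
Log2 fold changes, esomeprazole over vehicle, with standard errors are plotted for 18 chosen genes of the drug's targets, xenobiotic response, stress hormones, activity and inflammation, in 3 fits. The Nr3c1 estimate is -0.93 over 12 libraries and -0.02 in the 7 libraries with a no-feature share of 15% or more, and the Ddah1 estimate lies near 0 in each fit.

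Activity-regulated immediate early genes, which neurons transcribe soon after firing, were lower in 20 of 24, with a median log2 fold change of -0.14 and 0 at an unadjusted p under 0.05. Arc, whose protein acts at synapses, had 880 to 5690 normalised reads (median 2602) in esomeprazole libraries and 1575 to 12093 (median 3528) in vehicle libraries. Its highest value came from vehicle library 3, and the groups overlapped. Arc was at -0.60 ± 0.57 (-0.77 ± 0.49 among the 7 libraries), Fos, a subunit of the transcription factor AP-1, at -0.29 ± 0.56, and the nuclear receptor genes Nr4a2 and Nr4a3 at -0.48 ± 0.30 and -0.64 ± 0.43. The median of the list depended on single libraries. It was 0.01 without vehicle library 3 and -0.26 without vehicle library 2. With the no-feature share as covariate 0 of 24 were higher (median -0.18), and among the 7 libraries 11 of 24 were (median -0.04).

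Glutamate and GABA receptor subunits were lower in 23 of 36, with a median of -0.15 over the 12 libraries and -0.02 among the 7. The median was -0.37 without vehicle library 5 and -0.02 without esomeprazole library 4. Grin2b, an NMDA receptor subunit, had 339 to 881 normalised reads (median 577) in esomeprazole libraries and 300.2 to 1928 (median 786) in vehicle libraries. Vehicle libraries 1 and 4 held its 2 highest values, and its log2 fold change was -0.50 ± 0.43 over the 12 libraries and -0.81 ± 0.48 among the 7. The GABA-A receptor subunit gene Gabrg3 was at -0.69 ± 0.48 and -0.56 ± 0.28 in these fits. Interneuron genes were lower in 11 of 16 (median -0.15), and their median was 0.12 without vehicle library 3. The GABA synthesis gene Gad2 was at -0.40 ± 0.57, the peptide gene Vip at -0.45 ± 0.56, and Crhbp, which encodes a binding protein of corticotropin-releasing hormone, at -0.14 ± 0.14. Gad2 and Vip were at -0.05 ± 0.40 and -0.05 ± 0.20 among the 7 libraries.

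Of 23 genes of NF-kB and cytokine signalling tested, 9 were higher and 14 lower (median -0.02), and Il1b was the 1 with an unadjusted p under 0.05. The acute-phase gene Lcn2 had 10.01 to 69.8 normalised reads (median 34.5) in esomeprazole libraries and 8.71 to 129 (median 40.8) in vehicle libraries. Its ranges overlapped widely, at a log2 fold change of -0.22 ± 0.73. Interferon response genes were 13 higher and 13 lower (median 0.01, and -0.01 with median-of-ratios scaling) over the 12 libraries, and 22 of 26 were higher among the 7 (median 0.11). Their median was 0.15 without vehicle library 3 and -0.08 without esomeprazole library 2.

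Lists of protein and energy metabolism had medians near 0 over the 12 libraries. Heat shock and chaperone genes were lower in 19 of 22 (median -0.05), cholesterol synthesis genes in 19 of 25 (median -0.06), cytosolic ribosomal protein genes in 26 of 31 (median -0.04) and nuclear-encoded oxidative phosphorylation genes in 21 of 30 (median -0.03). These medians changed with single libraries and lay above 0 for each of the 4 lists without vehicle library 3. With the no-feature share as covariate the medians were -0.12 for heat shock, cholesterol and oxidative phosphorylation genes alike and -0.16 for ribosomal protein genes, and among the 7 libraries the 4 medians lay between -0.05 and 0.02. Intervals lay within a 2-fold change in either direction for 30 of 31 ribosomal protein genes and for 30 of 30 oxidative phosphorylation genes.

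Markers of cortical neurons were read but not set beside another tissue, so they cannot verify the tissue label. All 12 listed genes of upper-layer and all 14 of deep-layer excitatory neurons were read, with none at 0 in any library. The upper-layer genes summed to 900.1 to 1371 CPM in esomeprazole libraries and 770.1 to 1227 in vehicle libraries, and the deep-layer genes to 647 to 1029 in esomeprazole libraries and 730.4 to 992 in vehicle libraries. Genes listed for hippocampal neurons, which share Wfs1 with the upper-layer list, summed to 449 to 967 CPM in esomeprazole libraries and 504 to 877 in vehicle libraries. Upper-layer genes were higher in 7 of 12 (median 0.04) and deep-layer genes in 3 of 14 (median -0.10). Astrocyte genes were higher in 5 of 14 (median -0.03), myelin genes in 7 of 13 (0.00, and -0.02 with median-of-ratios scaling), microglial genes in 2 of 16 (-0.09) and endothelial genes in 7 of 14 (-0.01). The microglial median was 0.10 without vehicle library 3 and -0.18 without vehicle library 6, and among the 7 libraries it was 0.00 with 8 of 16 higher. In each of these lists 0 genes had an unadjusted p under 0.05.

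Striatal neuron genes, which mark a region that borders the frontal cortex, were higher with esomeprazole in 13 of 13, with a median log2 fold change of 0.32 and 0 at an unadjusted p under 0.05. They summed to 296 to 790.5 CPM in esomeprazole libraries and 323 to 420.2 in vehicle libraries, with 13 of the 15 listed genes read and none of them at 0. Sh3rf2, a striatal marker, had 67.0, 21.3, 13.98, 112.9, 15.6 and 14.03 normalised reads in esomeprazole libraries 1 to 6, and 14.5, 11.6, 15.8, 27.1, 15.01 and 11.5 in vehicle libraries 1 to 6. Esomeprazole libraries 1 and 4 stood above all others, and the other 4 lay within the vehicle range. Sh3rf2 was at 0.85 ± 0.52, and the striatal receptor gene Gpr6 was at 0.60 ± 0.56. A mean of the striatal markers (striatal score, formed as the bulb score) was 1.07 and 1.09 in esomeprazole libraries 1 and 4. It was -0.26 to -0.20 in the other esomeprazole libraries and -0.31 to 0.17 in vehicle libraries. The median of the list was 0.15 without esomeprazole library 4 and 0.46 without esomeprazole library 2. It was 0.31 among the 7 libraries, which include esomeprazole library 1. None of these fits leaves out both libraries of high striatal score. In bulk tissue more cells of a type and more RNA per cell cannot be told apart, and the part of striatal tissue in the fold changes of other genes was not tested.

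Olfactory bulb and neuroblast genes were higher in 11 of 16 (median 0.05), with none of the 16 at 0. They summed to 214 to 3111 CPM in esomeprazole libraries and 245 to 2957 in vehicle libraries. This median moved with the 2 libraries of low bulb score. It was 0.80 without esomeprazole library 5, -0.65 without vehicle library 4 and 0.15 without both. Choroid plexus genes were lower in 6 of 8 (median -0.23). Their median was 0.13 without esomeprazole library 5 and -0.63 among the 7 libraries. Kcnj13, a potassium channel gene of that tissue, had 22.4 to 69.9 normalised reads (median 49.3) in esomeprazole libraries and 52.3 to 84.8 (median 63.9) in vehicle libraries. In 5 of 6 esomeprazole libraries it lay below every vehicle library, and its log2 fold change was -0.57 ± 0.27. The thyroxine carrier gene Ttr was at -0.81 ± 0.51, with its highest value, 560 normalised reads, in vehicle library 4. Sostdc1, a secreted antagonist of BMP and Wnt signals, was at 0.23 ± 0.30.

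Ependymal genes were lower in 5 of 6 (median -0.22), and their median was 0.03 without esomeprazole library 5. Among them 1700012B09Rik was at -0.75 ± 0.89, the dynein light chain gene Dynlrb2 at -0.33 ± 0.29 and Mia at -0.33 ± 0.41. Of 15 blood leukocyte genes 6 were tested, and 4 of these were lower (median -0.78). This median rested on esomeprazole library 5, without which it was -0.11, and it was -0.58 among the 7 libraries. The neutrophil gene S100a9 had 11.1 to 53.3 normalised reads (median 25.03) in esomeprazole libraries and 20.3 to 166 (median 43.0) in vehicle libraries. The groups overlapped, at a log2 fold change of -0.97 ± 0.53. The T-cell coreceptor gene Cd4 was at 0.48 ± 0.42. Its highest values, 68.9 and 115 normalised reads, came from esomeprazole libraries 1 and 4, those of high striatal score. The T-cell genes Cd3e, Cd3g and Cd8a were not among the genes given, so Cd4 cannot be assigned to T cells here. The leukocyte genes summed to 6.29 to 11.7 CPM in esomeprazole libraries and 7.25 to 16.8 in vehicle libraries, with Ngp, a neutrophil granule gene, at 0 in at least 1 library. The part of these cell types in other fold changes was not tested.

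**Figure D5:**
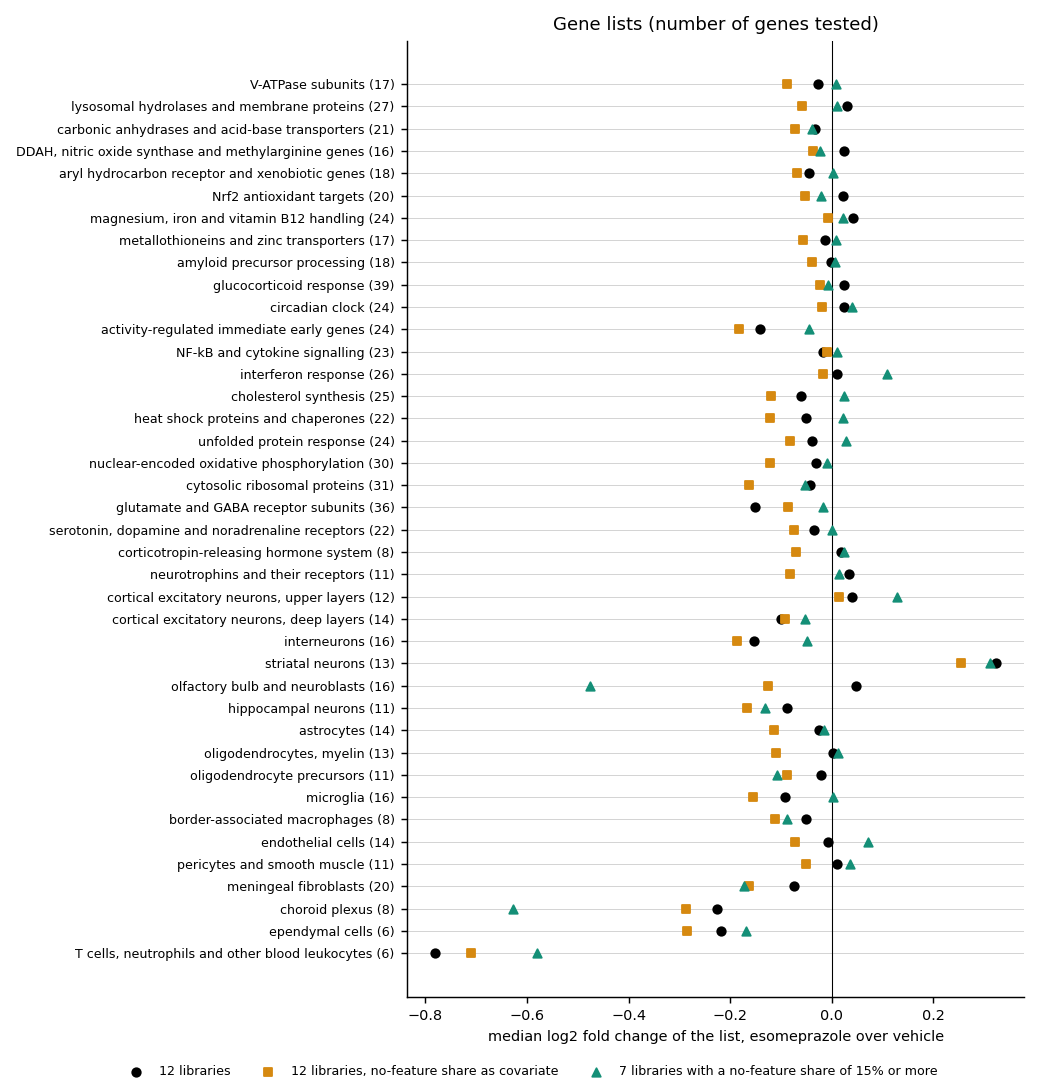
The median log2 fold change, esomeprazole over vehicle, of 40 gene lists with at least 5 genes tested is plotted in 3 fits, with the number of genes tested in brackets. Striatal genes (0.32, and 0.31 among the 7 libraries) and blood leukocyte genes (-0.78, but -0.11 without esomeprazole library 5) lie farthest out over the 12 libraries, and olfactory bulb genes move to -0.48 among the 7. The striatal score was high in esomeprazole libraries 1 and 4 only.

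Whether the effect of esomeprazole after stress differed from its effect without stress was tested over all 24 frontal cortex libraries. Limma called 0 of 15040 genes for this difference (0%), with 109 at an unadjusted p under 0.05 (0.725%). The edgeR test called 0, with 88 at an unadjusted p under 0.05, and DESeq2 called 0, with 143. The count at an unadjusted p under 0.05 was 12 without the libraries of low olfactory bulb score, 40 with that score as covariate and 1172 with the no-feature share as covariate, and 0 genes were called in each of these limma fits. Olfactory bulb genes had a median log2 fold change of 0.05 after stress and 2.15 without stress, and their part in the difference was not tested. Atp2b2 was at 0.29 after stress and at -0.26 ± 0.13 without it, a difference of 0.54 ± 0.18 (adjusted p = 0.999981 in limma). In vehicle mice Atp2b2 was at -0.37 ± 0.13 with stress against without, from libraries that also enter that difference. Brinp1 was at 0.22 after stress and at -0.26 ± 0.11 without, a difference of 0.47 ± 0.16. Card6 was at 0.29 after stress and at -0.09 ± 0.13 without, a difference of 0.38 ± 0.18. Atp2b2, Brinp1 and Card6 were named for their small p after stress, a comparison that is part of this difference. Their differences are therefore not a separate test. Cyp1b1, the aryl hydrocarbon receptor target, was at 0.02 after stress and at 1.00 ± 0.60 without, a difference of -0.99 ± 0.85.

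Whether the effect after stress differed between tissues was tested with the 12 hippocampus libraries of stressed mice. The design counts 6 mice per group and names both tissues, so the tissues may share mice, but the labels do not tie their libraries and the fit was unpaired. Limma called 0 of 14818 genes for frontal cortex minus hippocampus (0%), with 10 at an unadjusted p under 0.05 (0.0675%). The edgeR test called 0, with 26 at an unadjusted p under 0.05, and DESeq2 called 0, with 42. With a replicate block that pairs same-numbered libraries of a group across tissues 0 genes were called and 40 had an unadjusted p under 0.05. Card6 was at 0.29 in frontal cortex and at -0.40 ± 0.21 in hippocampus, a difference of 0.70 ± 0.29 (adjusted p = 0.999997 in limma). Klf10 was at -0.47 in frontal cortex and at -0.47 ± 0.23 in hippocampus, and Atp2b2 at 0.29 in frontal cortex and at 0.34 ± 0.16 in hippocampus. Card6, Klf10 and Atp2b2 were named for their small p in frontal cortex, a comparison that is part of this difference. Striatal neuron genes, higher in 13 of 13 in frontal cortex at a median of 0.32, had a median of 1.78 in hippocampus. In frontal cortex the striatal score was high in esomeprazole libraries 1 and 4 only. In hippocampus Sh3rf2 was at 1.79 ± 1.07 and Gpr6 at 2.33 ± 0.87. The part of striatal tissue in these medians was not tested.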

How the data were processed

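The deposited values are a signal: in every library used, 100% of them were within 0.02 of a whole read count times a library factor. The submitters' processing notes name STAR, HTSeq, DESeq2 and mm10, but give neither versions nor roles. Per the labels, a stranded mRNA kit was used. Files of frontal cortex held 15263 genes, 24 with names turned into dates and 1 name repeated.

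Whole reads were recovered and the libraries of each comparison scaled together by TMM (edgeR 4.0.16). Genes passing filterByExpr at a minimum count of 10 were tested by limma-trend (limma 3.58.1, R 4.3.3) on log2 of normalised reads plus 1, with Benjamini-Hochberg adjusted p under 0.05 over all genes tested as the threshold. Errors after ± are limma standard errors. Alternatives were edgeR quasi-likelihood, DESeq2 1.42.0, other scalings, no filter, a pseudocount of 5, covariates, surrogate variables (sva 3.50.0), library weights, a replicate block and leaving out each library. The code was tested on simulated data with known changes. Recovery of those changes was required only at a spread set by hand, not at the spread of these libraries. Gene reads per library were 27.6 to 41.2 M, and 95% Wilson half-widths on the no-feature shares were at most 0.0117 points and cover counting error only.

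Named genes were, in each direction, the 8 of smallest p with an average of at least 1 log2 CPM, 22 chosen genes, and, from each list with at least 5 genes tested whose median lay over 0.1 from that of all genes, up to 3 members with the smallest p. No list held 2 members with an unadjusted p under 0.05. Of 44 gene lists 24 were of pathways and 20 of cell types. Some named genes and a list are not reported here. Members and lists were chosen with earlier results of these data known. Gene positions are from GENCODE on GRCm38, and promoter sequences from RefSeq.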

Additional observations from a re-analysis of the deposited data

Results flagged for a closer look

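In 10 of 120 groups of 6 values looked at, the highest or lowest value stood apart from the other 5 by more than Dixon's 95% critical share of the group's range (log2 levels for genes). Chance gives such a gap in about 1 in 20 groups. In esomeprazole libraries, Atp2b2 had 21731 normalised reads in library 1 (the others 28660 to 31754), Dynlrb2 had 12.4 in library 4 (26.2 to 38.9), and 1700012B09Rik was at 0 in library 5 (16.0 to 49.6). The olfactory bulb score of esomeprazole library 5 was -2.63 (0.60 to 1.87). In vehicle libraries, Tbca had 741 normalised reads in library 5 (the others 919.8 to 1025). Vehicle library 3 had 1960.3 normalised reads of Txn1 (1251 to 1335) and 1.44% unmapped reads (0.645% to 0.871%). Vehicle library 4 had 27.1 normalised reads of Sh3rf2 (11.5 to 15.8), 560 of Ttr (80.4 to 156) and an olfactory bulb score of -2.40 (0.60 to 1.62).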

How the results depend on the processing

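The count of genes called for esomeprazole against vehicle after stress was 0 under each of the 29 alternatives. The smallest adjusted p was 0.0564 with library weights in limma and at least 0.766 in the others. The count at an unadjusted p under 0.05, 12 in the reported fit, depended on the setting. It was 25 with DESeq2, 24 without the low-count filter, 28 in the fit of all 24 frontal cortex libraries, 220 with the no-feature share as covariate, 419 with 2 surrogate variables and 1816 with library weights. In settings chosen after seeing the data it was 86 among the 7 libraries with a no-feature share of 15% or more (88 with edgeR), 403 with olfactory bulb score and no-feature share as covariates, and 223 with edgeR and the no-feature share as covariate. Leaving out 1 library at a time gave 3 (without vehicle library 2) to 27 (without vehicle library 5). The cause of these differences was not tested.

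The replicate numbers did not pair the libraries: same-numbered libraries correlated at 0.80, 0.13, 0.89, -0.69, -0.85 and 0.86 for numbers 1 to 6, and a library's own number was the best match for 2 of 6. With the replicate block 0 genes were called and 19 had an unadjusted p under 0.05. Leaving out 1 library moved the difference in gene reads over -1.65 to 1.07 M and that in no-feature share over -2.99 to 0.17 points. It turned gene reads positive without esomeprazole library 2 (1.07) or 5 (0.26) or vehicle library 5 (0.15) or 6 (0.07).

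Of 54 named genes 32 kept the direction of their fold change under all 29 alternatives, and 22 turned under at least 1. With library weights Card6 was at 0.44 and Kcnj13 at -1.39 (adjusted p = 0.0564 in limma for each), Plin4 at -0.19 and Spa17 at 0.03. With the deposited scaling the median of all genes for frontal cortex minus hippocampus was -0.19. For that difference the count at an unadjusted p under 0.05, 10 as reported, was 93 with the deposited scaling and 281 with the no-feature share as covariate. The median of a list kept its sign when each of the 12 libraries was left out in turn for 7 of 40 lists with at least 5 genes tested. Depth and spread bounded changes to within 1.5-fold for 32.4% of genes in the reported fit, 68.1% with the no-feature share as covariate and 74.1% among the 7 libraries.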
